A study of Physcomitrium patens with 24 samples.

Results

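A set of 150 genes of the moss Physcomitrella patens was all but silent at 24 °C and expressed after heating to 37 °C. Its members were chosen on read counts scaled to CPM (counts per 1e+06 counted reads of a library, by its column total). A gene met the rule with 8 or fewer reads summed over the 8 libraries of 24 °C and a mean of 1 CPM or more in at least 1 of the 4 groups of 37 °C. Of 32926 genes counted, 12152 had 8 or fewer reads at 24 °C and 387 of these met the rule, 3.18%. The 4 HSP20-like genes Pp3c18_16670, Pp3c11_14270, Pp3c25_8880 and Pp3c8_9380 were left out of that count. The members are the 150 with the highest mean in a 37 °C group, and the other 237 genes are not described further.

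The tissue was protonema, the filamentous stage that grows from a spore, of the Gransden strain, and it was sampled after 7 days on PpNH4 agar under a 16/8 h photoperiod. Dishes were kept at 24 °C as controls or moved to continuous heat of 30 °C or 37 °C. Each temperature was sampled at 1, 6, 12 and 24 h in 2 biological replicates, which gives 12 groups and 24 libraries of polyadenylated RNA. Every group was of the same strain, with no transgene or added agent. Library totals ran from 4552626 to 10696081 reads at 24 °C, from 4332911 to 9040288 at 30 °C and from 6358666 to 9102369 at 37 °C. The replicates of 37 °C 1 h differed more from each other than those of any other group, and their chi-square per gene was 40.3, against 2.90 to 24.9 in the other 11 groups. No protonema marker was named in the sources used here, so the tissue label was not checked.

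Heat unfolds proteins, and plant cells answer with heat shock transcription factors, which bind repeats of a short element in promoters and turn on genes of chaperones. Among these, small heat shock proteins of the HSP20 family hold unfolding proteins in a soluble state until other chaperones refold them. Many HSP20 genes are known to be nearly silent in unstressed vegetative tissue, which makes them the familiar case of a gene that heat turns on.

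The study's tables give a product name for 10 of the 150 members, and for 480 of all genes. Of the 10, 3 encode HSP20-like chaperones (Pp3c17_1520, Pp3c23_14390 and Pp3c8_8490) and 2 encode protein kinases (the leucine-rich repeat kinase Pp3c10_2370 and the calcium-dependent kinase Pp3c20_10080). The other 5 encode an auxin efflux carrier family protein (Pp3c19_9690), a Rubisco small chain family protein (Pp3c3_12330), an E1-E2 type ATPase family protein (Pp3c23_15270), a LEUNIG-like protein (Pp3c1_3750) and a putative retroelement polyprotein (Pp3c20_16241). None of the 25 genes named as transcription factors and none of the 6 named as late embryogenesis abundant proteins or dehydrins was a member. With 10 of the 480 named genes among the members, lists this small can lack a member at that share. The names come from tables that hold mainly genes of the early response to 37 °C, so a name is more likely for a member that is high at 1 h, and the remaining 140 members are known here by identifier alone.

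One member, the HSP20-like Pp3c8_8490 on chromosome 8, is among the 49 genes for which the study lists promoter sites of the motif it matched to a heat shock factor. The sites are shown because this gene was the only member with such sites listed and is described with its values below. Each is printed 5′ to 3′ on its own strand, with the 12-base site in capitals and 10 flanking bases on either side.
Pp3c8_8490, minus strand: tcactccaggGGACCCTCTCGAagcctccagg
Pp3c8_8490, plus strand: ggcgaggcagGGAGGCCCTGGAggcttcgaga
The stretches overlap by 16 bases on opposite strands. The same sequences are listed for Pp3c8_9380, 1 of the genes the rule left out, so reads of these genes may not be separable and the counts of Pp3c8_8490 are uncertain to that extent.

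At 37 °C the highest group mean of a member ranged from 2.80 to 81.9 CPM with a median of 6.67 CPM. It was 10 CPM or more in 51 members and 20 CPM or more in 23. These values chose the members and are given as a description, as are all levels and times at 37 °C and 24 °C below. Summed over the 150 members, the level at 37 °C was 476 and 1022 CPM after 1 h, 561 and 550 CPM after 6 h, 947 and 749 CPM after 12 h and 1088 and 911 CPM after 24 h. The 8 libraries of 24 °C held 6.00 to 15.8 CPM. In reads this is 50198 over the 37 °C libraries and 477 over the 24 °C libraries, out of 64049374 and 59397048 reads in all. At 24 °C 34 members had no read at all, which allows a level of up to 0.0505 CPM over the 8 libraries, and the limit of 8 reads corresponds to 0.135 CPM.

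**Figure D1:**
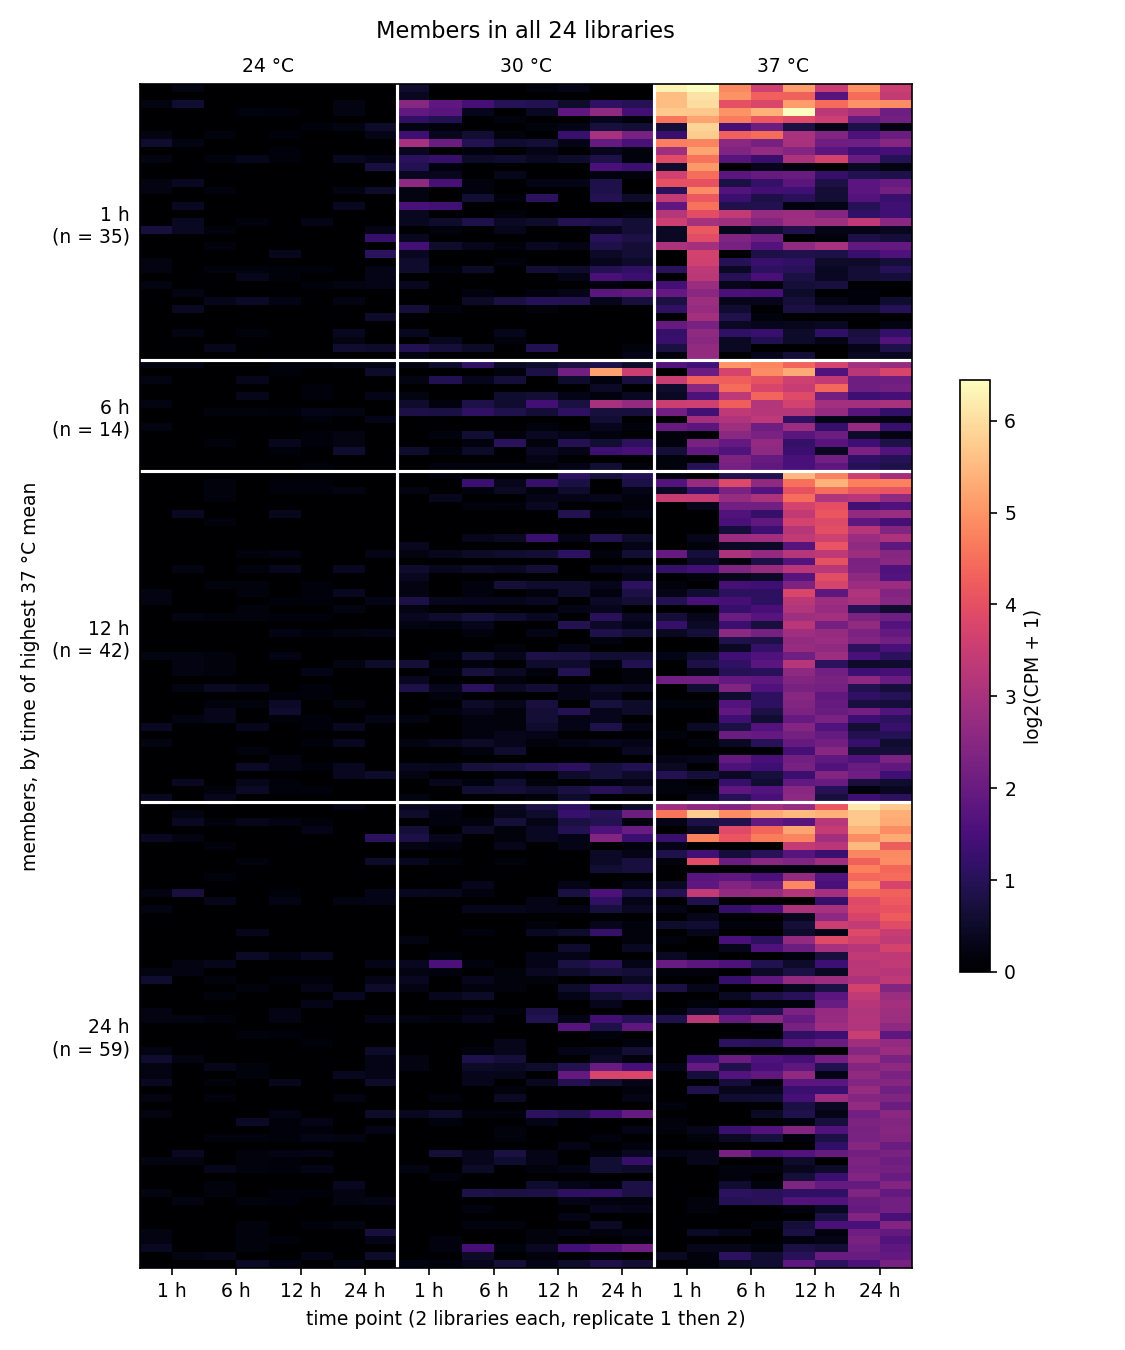
Level of the 150 members (rows) in the 24 libraries (columns, replicate 1 then 2 of each time point) as log2(CPM + 1), with rows grouped by the 37 °C time point of highest mean (35, 14, 42 and 59 members) and ordered by that mean. The 24 °C columns are nearly black, the 30 °C columns hold scattered signal that is strongest at 24 h, and at 37 °C the bright block moves to later columns down the groups.

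The members did not come on together. By the time point of the highest 37 °C mean, 35 members belonged to 1 h, 14 to 6 h, 42 to 12 h and 59 to 24 h. These shares were 23.3%, 9.33%, 28.0% and 39.3%, beside 19.5%, 14.6%, 29.3% and 36.5% of the 19303 genes with a mean of 1 CPM or more in a 37 °C group. The spread over times was thus near that of all such genes and is not particular to the members. At 1, 6, 12 and 24 h of 37 °C, 63, 88, 108 and 120 members were at 1 CPM or more. Counted by the first time point at which they reached 1 CPM, 63 members came on by 1 h, another 39 by 6 h, another 29 by 12 h and the last 19 by 24 h. The 1 h counts rest on replicate 2 of 37 °C 1 h. Without it 39 members in place of 63 were on at 1 h, 55 came on by 6 h, 30 by 12 h and 20 by 24 h, and 6 never reached 1 CPM. Without replicate 1 of that group 64 were on at 1 h.

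Most members that came on before 24 h were also on at every later time point. The share of all genes that do so was not counted. Of the 150, 38 were at 1 CPM or more at all 4 time points, 30 from 6 h to 24 h and 26 at 12 and 24 h. A further 19 were on at 24 h alone and have no later time point. Another 10 were on at 1 h alone. Without replicate 2 of 37 °C 1 h, 28 were on at all 4 time points and 4 at 1 h alone. Of the 59 members highest at 24 h, 11 had reached 1 CPM by 1 h, 12 by 6 h, 17 by 12 h and 19 not before 24 h. Of the 14 highest at 6 h, 11 had reached it by 1 h. Without replicate 2 of 37 °C 1 h the counts at 1 h were 4 of the 59 and 5 of the 14.

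Replicates set how firmly a member can be placed. Both libraries of the highest group lay above the other 6 libraries of 37 °C in 85 of 150 members, 56.7%, beside 51.1% of all 19303 genes at that level. This held for 44 of 59 members highest at 24 h, 20 of 42 at 12 h, 5 of 14 at 6 h and 16 of 35 at 1 h. The share of all genes was not given by time, so differences between these classes are not read as a trait of the members. The highest time point was the same in the replicate 1 series and the replicate 2 series for 100 members. The scaling also matters here, because the TMM factors (which correct library totals for a few very abundant genes) were 0.652 to 0.686 at 37 °C 1 h and 1.08 to 1.13 at 37 °C 24 h. On TMM-scaled CPM the 4 classes held 41, 13, 40 and 56 of the same members.

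**Figure D2:**
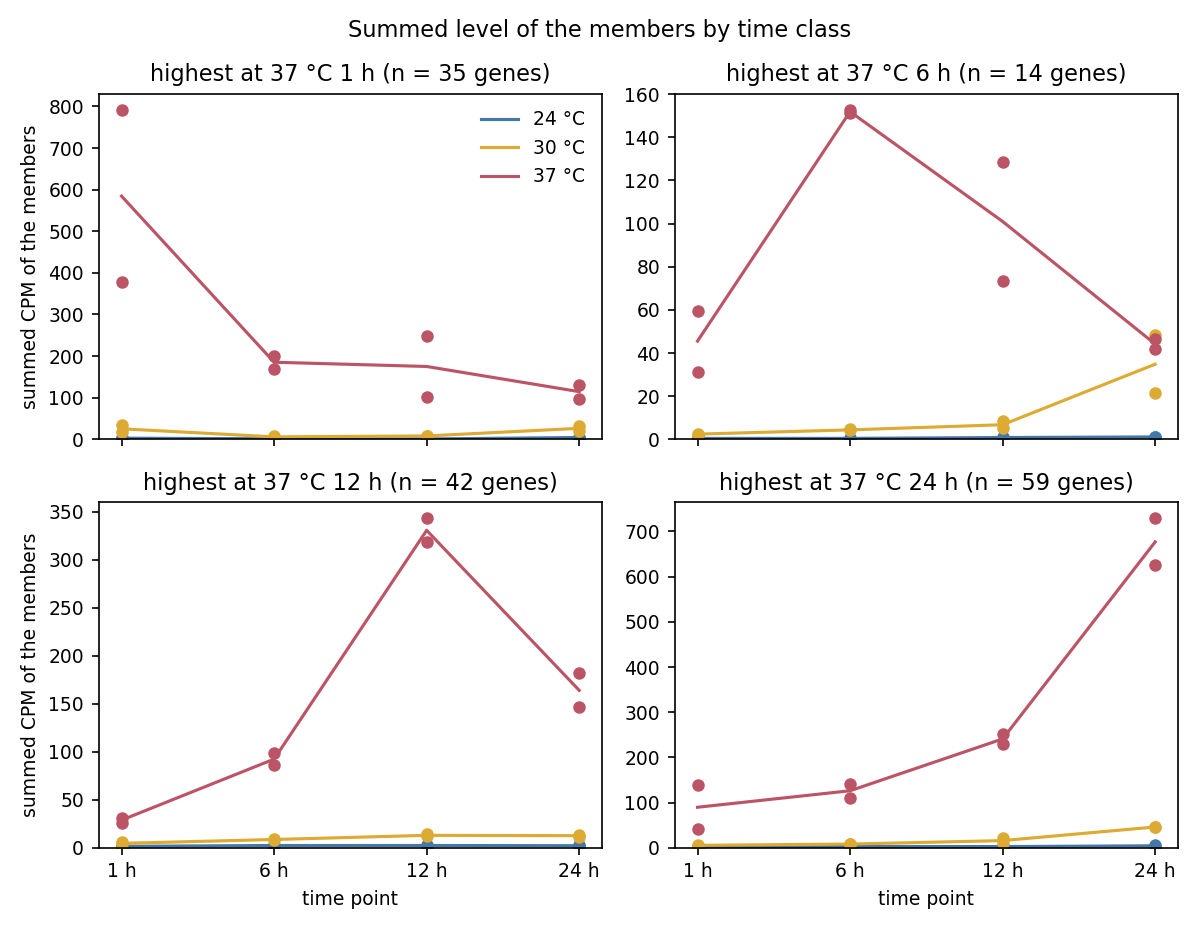
Summed CPM of the members highest at 37 °C after 1 h (35 genes), 6 h (14 genes), 12 h (42 genes) and 24 h (59 genes), in each library (points) with the mean of the 2 libraries (lines), at 24, 30 and 37 °C. The 2 libraries of 37 °C 1 h are far apart for the first class, at 377 and 792 CPM, and at 24 h the 30 °C libraries lie between those of 24 °C and 37 °C except in the 6 h class, where 1 library of 30 °C (48.4 CPM) reaches the 2 of 37 °C (46.5 and 41.8 CPM).

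The members highest at 1 h include the 3 HSP20-like genes. Pp3c17_1520, the highest of all members, stood at 78.5 and 85.3 CPM after 1 h at 37 °C, at 27.8 and 11.2 CPM after 6 h, at 34.0 and 10.4 CPM after 12 h and at 29.8 and 10.5 CPM after 24 h, against 1 read in the 24 °C libraries. Pp3c23_14390 stood at 47.0 and 67.0 CPM after 1 h, 30.8 and 18.7 CPM after 6 h, 18.7 and 2.32 CPM after 12 h and 21.2 and 9.75 CPM after 24 h, against no read at 24 °C. Both were highest in the 1 h libraries and remained expressed through 24 h. Pp3c8_8490, the gene with the promoter sites above, was briefer. It had 15.5 and 15.3 CPM after 1 h and 0.734 and 1.27 CPM after 6 h, and at 12 and 24 h its 4 libraries held 0.773 to 2.99 CPM, against 3 reads at 24 °C.

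Members without a name behaved in either way. Pp3c12_15789 stood at 46.5 and 63.5 CPM after 1 h and was still at 30.7 and 28.8 CPM after 24 h. Pp3c11_2330 and its neighbour in gene order Pp3c11_2320 declined over the day, the first from 23.2 and 36.5 CPM at 1 h through 24.8 and 16.7 CPM at 6 h and 13.8 and 10.9 CPM at 12 h to 2.86 and 3.46 CPM at 24 h. In Pp3c2_20180 the order of times is not settled. Its 1 h libraries held 52.4 and 51.0 CPM, and its 12 h libraries held 86.0 and 8.94 CPM. The calcium-dependent kinase Pp3c20_10080, of a family that relays calcium signals, was low throughout, with 15 and 47 reads after 1 h, 2 and 1 reads after 6 h, 4 and 6 reads after 12 h and none after 24 h.

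A second kind of 1 h member rested on 1 library. In 16 of the 35, the CPM of 37 °C 1 h was over 5 times higher in replicate 2 than in replicate 1, and in none was it the other way round. Among all 17156 genes at 1 CPM or more in that group, 2.59% had this ratio and 0.251% the opposite one. A member could enter this class through 1 high library alone, so the choice of members favours such ratios. The shares of all genes are thus no like-for-like background. Pp3c23_22050 had 5 reads in replicate 1 and 466 in replicate 2, Pp3c26_470 had 4 and 261, and Pp3c22_14960 had 12 and 428. Together the 16 genes had 134 reads in replicate 1 and 2622 in replicate 2, whereas the other 19 had 3110 and 3724 reads and 15 of them lay within 2-fold. Without replicate 2 of 37 °C 1 h, 23 of the 150 members instead of 35 were highest at 1 h. What set this library apart was not tested.

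**Figure D3:**
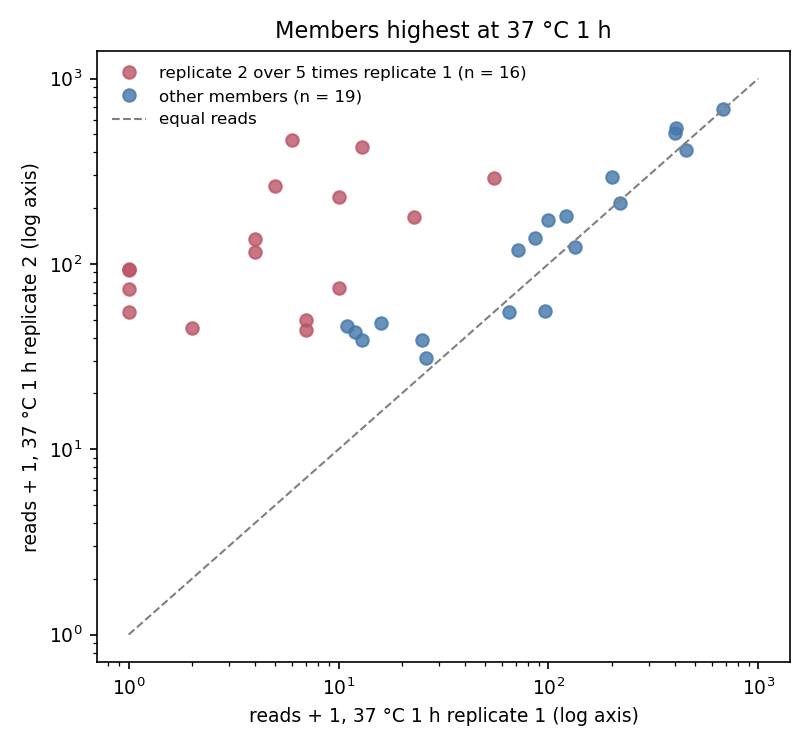
Reads (plus 1, log axes) of the 35 members highest at 37 °C 1 h in replicate 1 (horizontal) and replicate 2 (vertical) of that group, with the line of equal reads. The 16 genes in red lie far above the line, with 134 reads in replicate 1 and 2622 in replicate 2 in sum, and 15 of the 19 in blue are within 2-fold in CPM.

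The members highest at 6 h were few, and the groups around 6 h overlapped in most. The leucine-rich repeat kinase Pp3c10_2370 was the clearest. Such receptor-like kinases carry signals from the cell surface. It had 2.21 and 1.62 CPM after 1 h at 37 °C, 31.5 and 27.4 CPM after 6 h, 19.2 and 12.1 CPM after 12 h and 6.59 and 5.66 CPM after 24 h, against 6 reads at 24 °C. Its 6 h libraries lay above the other 6 libraries of 37 °C. The auxin efflux carrier gene Pp3c19_9690, of a family that moves the hormone auxin out of cells, had 10.4 and 18.5 CPM at 1 h, 18.1 and 15.6 CPM at 6 h, 11.3 and 9.60 CPM at 12 h, and at 24 h 30 and 21 reads were left of 78 and 87 at 12 h. For this gene 1 h and 6 h could not be put in order, and 24 h was lowest.

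None of the 42 members highest at 12 h had a name. Pp3c21_18499 went from near nothing to the top of this class between 6 and 12 h. Its libraries held 0.116 and 0 CPM at 1 h, 0.856 and 0.892 CPM at 6 h, 43.2 and 26.3 CPM at 12 h and 10.9 and 6.76 CPM at 24 h, against no read at 24 °C. Pp3s62_50, on an unplaced scaffold, showed a sharp maximum with 0 and 0.249 CPM at 1 h, 3.55 and 3.44 CPM at 6 h, 12.0 and 14.8 CPM at 12 h and 1.65 and 2.04 CPM at 24 h. In both genes the 12 h libraries were above every other library. Pp3c26_7530 and Pp3c19_2400 were less distinct, since their 24 h libraries held 25.6 and 26.1 CPM and 16.8 and 16.0 CPM, values inside the range of their 12 h libraries (22.1 and 42.3 CPM, and 15.5 and 21.5 CPM).

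The members highest at 24 h form the largest class. Pp3c16_7664, second of all members by level, had 6.28 and 4.99 CPM at 1 h, 4.28 and 6.63 CPM at 6 h, 5.51 and 16.3 CPM at 12 h and 71.8 and 52.5 CPM at 24 h, against 1 read at 24 °C. It was thus on at a low level from the first hour and far higher at the end of the day. Pp3c1_14640 climbed from 0.233 and 0.748 CPM at 1 h over 0.856 and 2.80 CPM at 6 h and 2.32 and 8.50 CPM at 12 h to 51.0 and 38.5 CPM at 24 h, and with 8 reads at 24 °C it sat at the limit of the rule. Pp3c7_2440 had no read at 24 °C and 3 reads in the first 6 libraries of 37 °C, and then 25.6 and 20.1 CPM at 24 h. Pp3c11_14240 resembled it, with 0 to 5.08 CPM in the libraries of 1 to 12 h and 12.3 and 17.6 CPM at 24 h, and it had no read at 24 °C or 30 °C.

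Not every member of this class was late. Pp3c4_27971 had 23.3 and 53.8 CPM at 1 h, 28.9 and 38.2 CPM at 6 h, 44.5 and 41.3 CPM at 12 h and 51.4 and 39.9 CPM at 24 h. The 1 h libraries spanned those of every later time, so no time can be called the highest. Pp3c3_17400 was off at 1 h with 0 and 0.374 CPM and on from 6 h, with 112 and 157 reads there and 379 and 184 reads at 24 h. The ATPase gene Pp3c23_15270, of a family of ion and lipid pumps, had 3.03 and 2.49 CPM at 1 h and 8.68 and 9.59 CPM at 24 h, with 0.435 to 1.96 CPM between.

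**Figure D4:**
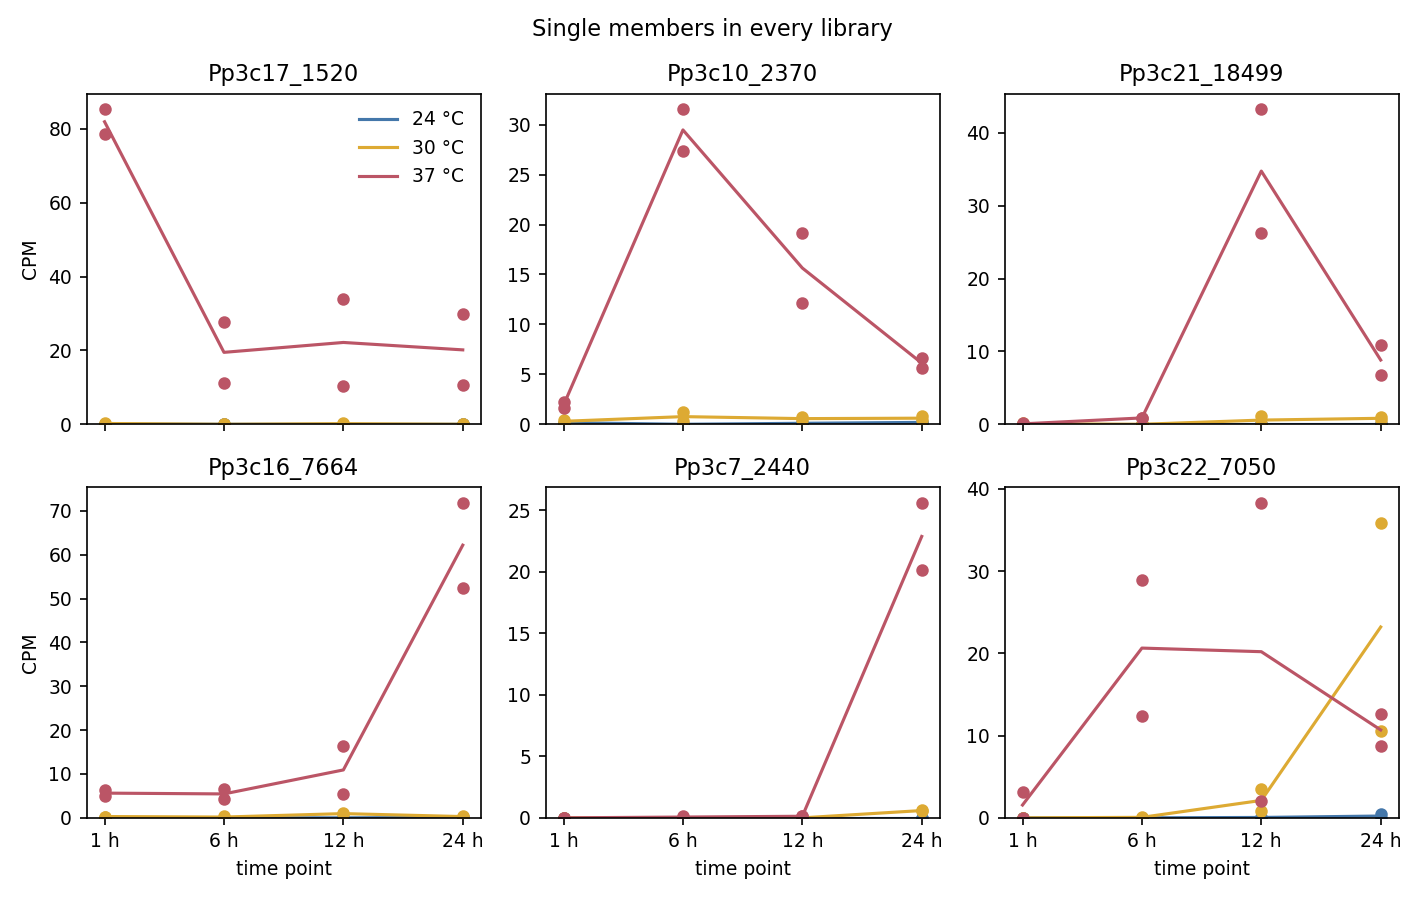
CPM of 6 members in every library (points) at 24, 30 and 37 °C with the mean of the 2 libraries (lines), 4 of them the highest of each 37 °C time class. Pp3c17_1520 peaks at 1 h, Pp3c10_2370 at 6 h, Pp3c21_18499 at 12 h and Pp3c16_7664 and Pp3c7_2440 at 24 h. Pp3c22_7050 has the highest 30 °C level of the 6, with 35.8 and 10.6 CPM at 24 h.

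The members were spread over all 27 chromosomes, with 2 on unplaced scaffolds, but some lay side by side. In the order of gene identifiers, 16 members formed 8 pairs of direct neighbours, and in all 8 both genes had the same time of highest mean. Neither was counted for neighbours among other genes, so neither is read as a trait of the members. Pp3c5_2308 and Pp3c5_2310 had 94 and 16 reads and 402 and 113 reads at 37 °C 24 h, against 2 reads and 1 read at 24 °C. Pp3c16_14431 and Pp3c16_14440 had 88 and 59 reads and 37 and 27 reads there. Pp3c15_22030 and Pp3c15_22031 had nearly equal counts, 145 and 131 reads in replicate 2 of 37 °C 12 h and 16 reads each in replicate 1. The counting used default settings and no gene coordinates were used here, so whether neighbours share reads or a transcript was not tested.

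The 30 °C libraries took no part in the choice of members, and they show how far the milder heat reached the same genes. Over the 8 libraries of 30 °C, 89 of the 150 members (59.3%) had more than 8 reads, the limit that defined silence at 24 °C. Of the other 12002 genes silent at 24 °C 6.17% did, and of the 11762 that were also under 1 CPM at 37 °C 5.22% did. Of the other 237 genes that met the rule, 125 (52.7%) did. At 30 °C 128 members had more reads than at 24 °C, an order that the limit of 8 reads at 24 °C favours. The same was not counted for other genes. At 30 °C 9 members had no read, which allows up to 0.0504 CPM. By class of 37 °C time, 22 of 35, 10 of 14, 25 of 42 and 32 of 59 members had more than 8 reads at 30 °C. No test was run of 30 °C against 24 °C, because the rule fixed the 24 °C values.

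The level at 30 °C was low. The members had 3464 reads over the 30 °C libraries in all, with a median of 13 reads a member. Their summed CPM was 46.3 and 29.3 at 1 h, 30.2 and 24.2 at 6 h, 34.8 and 52.9 at 12 h and 138 and 102 at 24 h. At 1, 6, 12 and 24 h of 30 °C, 9, 2, 8 and 22 members had a mean of 1 CPM or more, 31 members in any group, and 20 of these 31 were highest at 24 h. In 2 members, Pp3c22_7050 and Pp3c9_2960, the highest mean of 30 °C was above that of 37 °C. For Pp3c9_2960 these means were 12.7 and 4.55 CPM. For Pp3c22_7050 they were 23.2 and 20.6 CPM, and without replicate 1 of 30 °C 24 h the first was 10.6 CPM, which turns the order round. The order of Pp3c9_2960 was the same without either replicate of 30 °C 24 h.

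A high level at 37 °C did not go with many reads at 30 °C in every member. The HSP20-like Pp3c17_1520 had 3 and 0 reads at 30 °C 1 h and 5 over all 30 °C libraries, and Pp3c23_14390 had 2 reads over all of them. The HSP20-like Pp3c8_8490 had 34 and 12 reads at 30 °C 1 h. Of the 2 named kinases, Pp3c10_2370 had 33 reads over the 30 °C libraries and Pp3c20_10080 had 3. Pp3c24_9440 had no read at 30 °C and 83 and 122 reads at 37 °C 12 h.

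The 30 °C counts took no part in the rule. Each later time point of 30 °C was compared with 1 h in the edgeR quasi-likelihood fit of all 24 libraries. The spread of each gene was estimated over all groups, including the 24 °C and 37 °C values that chose the members. Genes were called where the Benjamini-Hochberg adjusted p, over the 21429 genes fitted, was under 0.05 and expression differed at least 2-fold. All 150 members passed the filter on low counts, most of them through their 37 °C libraries. Neither this filter nor the spread was thus independent of the rule. At 30 °C 6 h against 1 h, 1 member was higher and 7 were lower, beside 8.05% and 5.82% of all genes. At 12 h against 1 h, 2 were higher and 6 lower, beside 9.75% and 8.19%. At 24 h against 1 h, 13 were higher and 5 lower, beside 10.8% and 8.68%. In this fit no count is above the background share, and 61 members had 8 or fewer reads over all 30 °C libraries. The median log2 fold change of the members was 0, 0 and 1.29 in the 3 comparisons, beside 0.0339, 0.0597 and 0.0754 over all genes, and a median over genes with many zeros depends on the prior count of the fit.

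These counts depend on single libraries and on scaling. Without replicate 1 of 30 °C 1 h they were 4, 5 and 4 in place of 8, 8 and 18, and without replicate 2 of that group 5, 6 and 10. Leaving out replicate 1 or replicate 2 of 30 °C 6 h gave 5 at 6 h. With library totals in place of TMM, which shifts log2 fold changes by 0.279 at 6 h, 0.448 at 12 h and 0.413 at 24 h, 2 members were higher and 7 lower at 6 h, 8 higher and 5 lower at 12 h, and 22 higher and 4 lower at 24 h. Of all genes in that fit, 13.2% were higher and 3.37% lower at 6 h, 20.4% and 4.19% at 12 h, and 20.5% and 4.50% at 24 h. By these shares the 7 of 150 members lower at 6 h are near the share of all genes and are not read as an excess. In the TMM fit 7 were lower as well, beside 5.82% of all genes. No other count here was above its share.

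Of the 7 members that were lower at a later 30 °C time, 6 were members highest at 37 °C after 1 h, a class of 35 of the 150. The same split was not counted for all genes, so it is not read as an excess. A lower call needs reads at 30 °C 1 h, where this class held 224 and 113 and the 59 members highest at 24 h held 33 and 41. In 5 of the 6, Pp3c8_8490, Pp3c8_8860, Pp3c12_15789, Pp3c11_2330 and Pp3c13_11710, the call held at 6, 12 and 24 h. The HSP20-like Pp3c8_8490 had 1 and 0 reads at 30 °C 6 h, 2 and 1 reads at 12 h and 6 and 0 reads at 24 h, against 34 and 12 reads at 1 h. All 6 later libraries were below both of 1 h. The log2 fold change of 24 h against 1 h was −3.58 (SE 0.84, edgeR adjusted p = 0.00389), and with 1 read at 6 h against 46 at 1 h the CPM pooled over both libraries was 55.3 times lower at 6 h (95% counting interval 9.44 to 2231). The 24 h call was lost without replicate 1 of 30 °C 1 h (adjusted p = 0.0752), and the 6 h call held under every alternative run.

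Pp3c8_8860 had 7 and 4 reads at 30 °C 6 h, 5 and 1 reads at 12 h and 22 and 17 reads at 24 h, against 46 and 21 reads at 1 h. It dipped and came back in part, with log2 fold changes of −3.12 at 6 h (SE 0.56, edgeR adjusted p = 0.000661), −3.90 at 12 h (SE 0.63, adjusted p = 0.000195) and −1.50 at 24 h (SE 0.47, adjusted p = 0.0223). The 24 h call was lost without replicate 1 of 30 °C 1 h (adjusted p = 0.319) and without replicate 2 of 30 °C 24 h (adjusted p = 0.146). Pp3c13_11710 had no read in the 6 later libraries of 30 °C, against 12 and 11 reads at 1 h. With a floor of 3 reads over the group in place of 0, it was 9.59-fold lower at 24 h (edgeR adjusted p = 0.0136). Leaving out any of the 4 libraries compared but replicate 2 of 30 °C 1 h gave adjusted p values of 0.0513 to 0.0623 for this comparison. It was also 1 of the 16 genes led by replicate 2 at 37 °C 1 h, with 22 and 178 reads there. The seventh, the ATPase gene Pp3c23_15270, was lower at 6 h only, with 1 and 0 reads against 2 and 13 reads at 1 h (edgeR adjusted p = 0.0283), and its 13 reads came from replicate 2 of 30 °C 1 h, without which the adjusted p was 0.429.

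**Figure D5:**
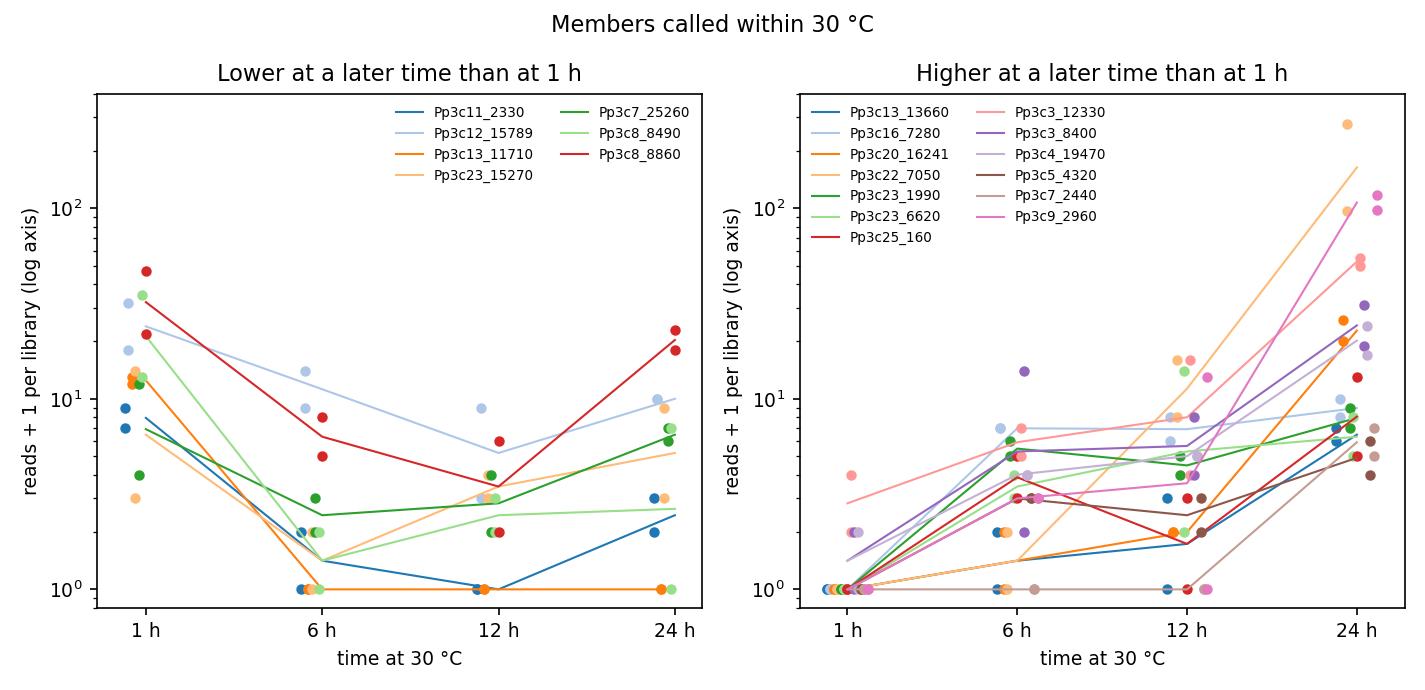
Reads (plus 1, log axis) per library (points) and their geometric mean (lines) at 1, 6, 12 and 24 h of 30 °C, for the 7 members called lower (left) and the 13 called higher (right) at a later time than at 1 h. On the left, Pp3c13_11710 has 12 and 11 reads at 1 h and none later, and on the right, Pp3c22_7050 has 275 and 96 reads and Pp3c9_2960 has 97 and 116 reads at 24 h.

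The 13 members that were higher after 24 h at 30 °C belonged to all classes, with 1 of the 35 highest at 37 °C after 1 h, 2 of the 14 at 6 h, 3 of the 42 at 12 h and 7 of the 59 at 24 h. Pp3c22_7050 had 275 and 96 reads at 30 °C 24 h, against none at 1 h. With a floor of 3 reads over the group in place of 0, it was 98.9-fold higher (edgeR adjusted p = 0.0223). In CPM its libraries held 35.8 and 10.6 at 30 °C 24 h, beside 8.79 and 12.6 at 37 °C 24 h. Its 37 °C libraries held 12.3 and 28.9 at 6 h and 38.3 and 2.10 at 12 h. Its adjusted p was 0.0993 without replicate 1 and 0.0936 without replicate 2 of 30 °C 1 h, and 0.0791 without replicate 1 of 30 °C 24 h.

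Pp3c9_2960 had 97 and 116 reads at 30 °C 24 h, against none at 1 h, 56.8-fold higher against the floor of 3 reads (edgeR adjusted p = 0.00532). At 12.6 and 12.8 CPM it was above its 37 °C 24 h libraries, with 5.16 and 3.93 CPM. The retroelement polyprotein gene Pp3c20_16241, named for a protein of mobile elements, had 19 and 25 reads at 30 °C 24 h, against none at 1 h. Against the same floor it was 11.7-fold higher (edgeR adjusted p = 0.0023). At 37 °C it ran the other way, with 24 and 38 reads at 1 h, 15 and 14 reads at 6 h, 3 and 0 reads at 12 h and 1 and 0 reads at 24 h. The calls of Pp3c9_2960 and Pp3c20_16241 held under every alternative run.

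The Rubisco small chain gene Pp3c3_12330, whose family forms the small subunit of the carbon-fixing enzyme, had 54 and 49 reads at 30 °C 24 h, against 3 and 1 reads at 1 h. The log2 fold change was 3.90 (SE 0.68, edgeR adjusted p = 0.000405), and both libraries of 24 h were above the 6 earlier ones. The call was lost only with limma-voom treat (adjusted p = 0.0562). At 37 °C its 12 h libraries overlapped or spanned those of every other time and only 24 h lay below 1 h in both libraries, with 10.6 and 11.2 CPM at 1 h, 18.3 and 8.16 CPM at 6 h, 11.6 and 6.62 CPM at 12 h and 6.81 and 7.23 CPM at 24 h. Among the members higher at an earlier time, Pp3c16_7280 was called at 6, 12 and 24 h, with 6 and 6, 7 and 5, and 9 and 7 reads against none at 1 h. At 24 h it was 4.26-fold higher against the floor of 3 reads. Its 6 h call was lost without either replicate of 30 °C 1 h, at an adjusted p of 0.0622 without replicate 1 and 0.0566 without replicate 2.

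The limits of the rule cut through a continuum. The last members by level were Pp3c23_1990 (2.82 CPM), Pp3c7_13150 (2.80 CPM) and Pp3c14_26541 (2.80 CPM), and the first genes beyond them were Pp3c1_42480 (2.79 CPM), Pp3c2_9530 (2.76 CPM) and Pp3c15_19790 (2.72 CPM). Just inside the limit of 1 CPM lay Pp3c3_24900, Pp3s1078_30 and Pp3c10_12894 (all 1.00 CPM), and just outside it Pp3s1105_10 (0.994 CPM), Pp3c7_23340 and Pp3c21_4531 (both 0.990 CPM). With 8 reads at 24 °C, Pp3c1_14640, Pp3c26_12920 and Pp3c22_16576 were members at 44.8, 33.8 and 18.3 CPM, and with 9 reads Pp3c23_18540, Pp3c3_25750 and Pp3c8_21600 were not, at 14.3, 8.07 and 8.06 CPM.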

How the data were processed

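RNA of P. patens protonemata was sequenced as strand-specific paired-end libraries from polyadenylated RNA. The deposited values are raw counts of reads per gene, which the authors made with bcl2fastq 1.8.4, BWA 0.7.17.1 and featureCounts at default settings, so strand was not used in counting and reads of overlapping or near-identical genes cannot be told apart.

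CPM used column totals. Counts were fitted in R 4.3.3 with edgeR 4.0.16 (robust quasi-likelihood, TMM, 12 groups, genes above 0.5 CPM in at least 2 libraries), checked first on simulated counts. Standard errors are the log2 fold change over the square root of F. One spread per gene served all groups. limma 3.58.1 and DESeq2 1.42.0 served as alternatives. Intervals cover counting error only. A floor puts 3 reads in place of 0 in 1 group and takes the reads of the other group as exact. Folds against it are thus not lower limits. Nothing beyond the study's statement shows that replicates came from separate cultures.

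The members and lists were chosen with earlier results of these data known. Genes named are the 15 highest members, the 5 highest of each class, the 10 with most 30 °C reads, up to 4 of each name list and up to 5 called in each direction, neighbours, and genes at the limits, of which the text gives a part. Other members named were chosen after their values were seen. Name lists are patterns matched from the start of a word to product names in the study's tables. Promoters and proteins were not analysed here.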

Additional observations from a re-analysis of the deposited data

Results flagged for a closer look

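In 7 members, levels moved in opposite directions over the day at the milder and the harsher temperature in every library, higher at 24 h than at 1 h at 30 °C and lower at 24 h than at 1 h at 37 °C. The difference between the temperatures was not tested. How many of all genes show this pattern was not counted, so it is not read as a trait of the members. For Pp3c3_12330, the Rubisco small chain gene, the mean difference of 24 h minus 1 h was 5.92 CPM at 30 °C and −3.89 CPM at 37 °C. For the retroelement gene Pp3c20_16241 it was 2.62 CPM and −3.71 CPM. These 2 genes were called at 30 °C. The other 5 were not called there, with differences at 30 °C of 1.11 CPM for Pp3c26_470, 0.602 CPM for Pp3c4_4330, 0.332 CPM for Pp3c1_25100, 0.764 CPM for Pp3c8_4790 and 0.462 CPM for Pp3c16_8150. Of these 5, all but Pp3c4_4330 belong to the 16 genes led by replicate 2 of 37 °C 1 h.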

How the results depend on the processing

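The number of genes meeting the rule, 387, was 247 and 637 with a limit of 4 and 16 reads at 24 °C, and 802 and 208 with a minimum of 0.5 and 2 CPM. Without single libraries it was 368 to 455. Members highest at 1 h numbered 23 to 37 without single 37 °C libraries, lowest without replicate 2 of 37 °C 1 h. Members at 1 CPM or more at 37 °C 1 h (63) numbered 39 to 64 with 1 replicate of that group left out, an alternative chosen after seeing the data. Members with more than 8 reads at 30 °C (89) numbered 108 and 61 with a limit of 4 and 16 reads, and 79 to 89 without single 30 °C libraries. With limma-voom treat, which tests against the fold limit itself, the members called at 6, 12 and 24 h against 1 h at 30 °C were 1, 1 and 3, against 414, 713 and 823 of all genes. With library totals 13 were called at 12 h. Without single libraries the counts were 4 to 5, 5 to 7 and 4 to 14. Differences between replicates 1 and 2 correlated across genes at 0.0585 to 0.07 between 1 h and each later group of 30 °C, 0.211 between 6 and 24 h, 0.134 between 12 and 24 h and −0.00291 between 6 and 12 h. The labels state no pairing and each comparison has 2 pairs, so the numbers were not taken to pair libraries, and with a replicate block 8, 9 and 19 members were called. At an unadjusted p under 0.05, 15, 17 and 30 members passed, and the share of all genes at that limit was not counted. Counts of called members given here without a figure for all genes are not read as an excess or a shortfall. Of 34 single calls, 4 held under every alternative, and none reversed. The motif windows could not be run without promoters. With a median of 13 reads a member over the 8 libraries of 30 °C, small changes were not detectable at this depth.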

Other observations

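The same rule with temperatures exchanged, and no gene left out, gave 390 genes silent at 24 °C and on at 37 °C, against 156 silent at 37 °C and on at 24 °C. It gave 128 genes silent at 24 °C and on at 30 °C, against 27 silent at 30 °C and on at 24 °C. Between the heated groups, 194 genes were silent at 30 °C and on at 37 °C, and 188 were silent at 37 °C and on at 30 °C. These counts were not tested.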
